A study of Mus musculus with 36 samples.

Results

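Plasma cells of the MMSET-Ikk2ca and the Ccnd1-Ikk2ca mouse were compared directly, model against model. The comparison took every library with either group label, 6 of each, so 12 of the 36 libraries of the series. The series profiled subgroup-specific mouse models of multiple myeloma, a cancer of bone marrow plasma cells, on the C57/BL6 strain. It has 2 cohorts, named for Ccnd1 (D) and MMSET (M), each with its own control group, single transgenic groups and a double transgenic group. MMSET-Ikk2ca cells carried the MMSET and the Ikk2ca transgene, and Ccnd1-Ikk2ca cells carried the Ccnd1 and the Ikk2ca transgene, so both groups shared Ikk2ca. Control(M) and Control(D), 4 libraries each, are the labelled controls of the 2 cohorts. They were used to mark differences that the cohorts already had and to subtract them. Each library came from 2000 sorted CD138+TACI+ bone marrow plasma cells, reporter-positive where the design applies a reporter. The promoter or Cre behind each transgene, the age and sex of the mice and whether replicates were separate animals are not given in the sources used here. The p-values therefore measure the spread between these samples. Group and cohort cannot be told apart in a direct comparison, because every MMSET-Ikk2ca library belongs to the M cohort and every Ccnd1-Ikk2ca library to the D cohort.

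MMSET, encoded by Nsd2 in the mouse, is a histone methyltransferase that places dimethyl marks on lysine 36 of histone H3, and it is switched on in human myeloma by a translocation to the immunoglobulin heavy chain locus. Cyclin D1, encoded by Ccnd1, activates the kinases Cdk4 and Cdk6, which phosphorylate the retinoblastoma protein and release the cell into S phase, and it is the partner of another recurrent translocation. Ikk2ca is a constitutively active form of IKK2, the kinase encoded by Ikbkb that starts canonical NF-kB signalling by marking the inhibitor IkB for degradation. Plasma cells are the antibody-secreting end stage of B cells and silence much of the B cell programme, including antigen presentation on MHC class II.

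The 12 libraries held 57.1 to 79.2 M estimated reads (M, 1e6). Immunoglobulin genes took 43.9% to 65.9% of them, and 21.5 to 34.9 M fell on all remaining genes. At least 10 reads fell on 12657 to 14045 genes per library. Levels are given in CPM, the reads of a gene relative to the library total scaled by TMM factors, and for each group of 6 the lowest, the median and the highest library are given. Plasma cell markers were present throughout, among them the sorting marker Sdc1 (CD138) at 289.9, 383 and 452 CPM in MMSET-Ikk2ca and 291, 492 and 551 in Ccnd1-Ikk2ca. The 8 plasma cell markers summed to 4431 to 6388 CPM in MMSET-Ikk2ca and 7523 to 19494 in Ccnd1-Ikk2ca. The sums were 31071 to 41705 CPM in Control(M) and 54145 to 99913 in Control(D). Jchain alone made up most of the sums in both controls. Against the cohort's control the median log2 fold change of the 8 was -0.69 in MMSET-Ikk2ca and -0.51 in Ccnd1-Ikk2ca. Of the 8, 5 and 4 were called lower there, where 4.42% and 3.94% of all genes were. Between the models 7 of the 8 values were below 0, and 3 were called lower in MMSET-Ikk2ca, where 1.57% of all genes were. Summed T cell markers stayed at 2.09 to 6.89 and 3.27 to 8.0 CPM, and no neutrophil, monocyte, T cell, NK cell, erythroid, megakaryocyte, basophil or stromal marker passed the test between the models. Neutrophil markers summed to 0.774 to 14.8 CPM in MMSET-Ikk2ca and 1.29 to 223 in Ccnd1-Ikk2ca, where replicate 1 held the 223. In a principal component analysis of 2000 variable genes the models separated on the first component, from 33.5 to 59.1 against -56.6 to -46.6. MMSET-Ikk2ca replicate 4 stood apart on the second, at -107, where the other MMSET-Ikk2ca libraries lay between -30.8 and 40.0. Its 30 mitosis genes summed to 32.6 CPM, against 222 to 324 in the other MMSET-Ikk2ca and 157 to 334 in the Ccnd1-Ikk2ca libraries. Without it 370 genes differed between the models, against 427 with it.

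**Figure D1:**
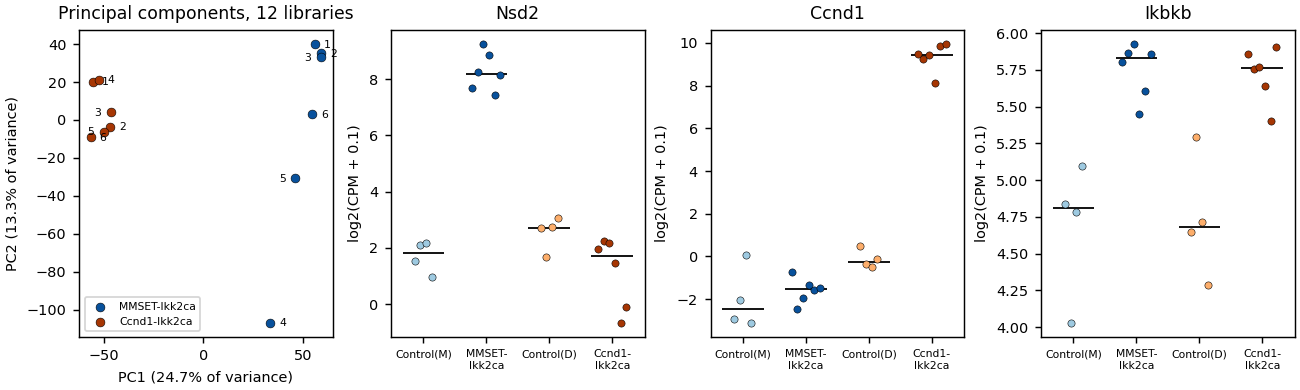
Left, the first and second principal component of the 12 libraries over 2000 genes outside the immunoglobulin loci. Right, log2(CPM + 0.1) of Nsd2, Ccnd1 and Ikbkb in each library (points) with group medians (lines): the 6 MMSET-Ikk2ca libraries lie above all others for Nsd2, the 6 Ccnd1-Ikk2ca libraries for Ccnd1, and both models above the controls for Ikbkb.

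The targeted genes matched the labels in all 12 libraries. Nsd2 (chr5:33820725-33897975, GRCm38) was read at 206, 305, 605, 459.8, 174 and 282 CPM in MMSET-Ikk2ca replicates 1 to 6 and at 3.82, 4.69, 4.46, 2.67, 0.534 and 0.836 CPM in Ccnd1-Ikk2ca. The groups did not overlap, and the level in Ccnd1-Ikk2ca lay near that of Control(M), at 1.87 to 4.41 CPM, and of Control(D), at 3.14 to 8.36. The log2 fold change of MMSET-Ikk2ca over Ccnd1-Ikk2ca was 6.90 ± 0.56 (SE, n = 6 and 6; edgeR quasi-likelihood test, adjusted p = 3.97e-09). Ccnd1 (chr7:144929931-144939925) was the reverse, at 0.504, 0.0833, 0.162, 0.292, 0.236 and 0.258 CPM in MMSET-Ikk2ca and 706, 612, 683, 281, 939 and 983 CPM in Ccnd1-Ikk2ca. Its log2 fold change was -11.41 ± 1.03 (edgeR adjusted p = 2.73e-08), and with the controls' own difference subtracted it was -9.86 ± 1.3 (edgeR adjusted p = 0.000152, 0.285 with limma voom).

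Ikbkb (chr8:22659212-22706589), the gene both models share as a transgene, was read at 55.7, 58.1, 60.6, 43.7, 48.5 and 57.9 CPM in MMSET-Ikk2ca and 58.0, 53.9, 54.5, 49.8, 42.1 and 59.8 CPM in Ccnd1-Ikk2ca. These ranges overlap almost wholly, with a log2 fold change of 0.03 ± 0.20 (edgeR adjusted p = 0.998), while both lay above Control(M), at 16.2 to 34.2 CPM, and Control(D), at 19.4 to 39.0. The transcript Ikbkb-201 held 71.4% to 83.6% of the gene's reads in MMSET-Ikk2ca and 65.6% to 82.6% in Ccnd1-Ikk2ca, against 32.5% to 64.3% in Control(M) and 34.7% to 54.8% in Control(D). For Nsd2, the transcript Nsd2-201 held 73.7% to 80.4% in MMSET-Ikk2ca. Its share was 0% to 97.4% in Ccnd1-Ikk2ca, 17.6% to 92.8% in Control(M) and 29.0% to 52.3% in Control(D). For Ccnd1 in Ccnd1-Ikk2ca, Ccnd1-201 held 43.5% to 45.2%. Ccnd1-203 and Ccnd1-202, both annotated as retained introns, held 41.7% to 43.3% and 12.2% to 13.2%. In the controls, where Ccnd1 was low, Ccnd1-201 held 78.6% to 100%. The deposited tables list mouse reference transcripts, so reads of a transgene and of the endogenous gene are summed here.

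Between the models 427 of 17116 tested genes differed at an adjusted p under 0.05 (edgeR), which is 2.49% of the genes tested. Of these, 158 were higher in MMSET-Ikk2ca (0.923% of the genes tested) and 269 lower (1.57%), and 274 differed at least 2-fold. The median log2 fold change over all genes tested was -0.01. The share of higher calls was 37.0% in this fit and turned to 57.1% with limma voom (505 higher, 379 lower) and to 57.7% in a fit of the 12 libraries alone (164 higher, 120 lower). Among the called genes, 97 were higher and 97 lower with no overlap between the 6 and 6 libraries, and such separation was seen in 380 genes, or 2.22%, of all those tested.

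The cohorts' controls differed in few genes. Between Control(M) and Control(D) 7 genes passed the test (0.0409% of those tested; edgeR), Hivep3, Gpm6a, Large2, Tdrkh, Cgrrf1, Gm11830 and Gm38226, all higher in Control(M), whereas 1780 genes had an unadjusted p under 0.05 and DESeq2 called 421. A gene was marked as already different between the cohorts when the controls differed in the same direction at an unadjusted p under 0.05. This marked 20 of the 158 higher and 23 of the 269 lower genes, and the other 384 were not marked. With the difference between the controls subtracted, 30 genes passed the test (0.175%, edgeR), out of 1910 with an unadjusted p under 0.05. The subtracted difference was above 0 in 10 of them and below 0 in 20. Of these, 10 were also among the 158 higher genes and 15 among the 269 lower genes. The rest were not called between the models, among them Large2, Gm11830 and Gm38226, which passed the test between the controls.

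**Figure D2:**
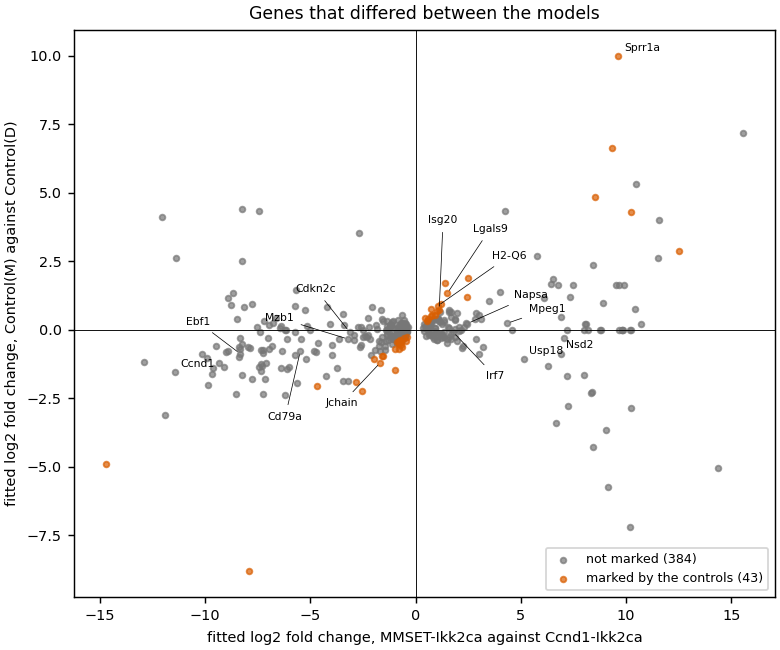
Fitted log2 fold change of MMSET-Ikk2ca over Ccnd1-Ikk2ca (x axis) and of Control(M) over Control(D) (y axis) for the 427 genes that differed between the models, with 43 marked as already different between the controls in orange and the other 384 in grey. Folds of genes near 0 reads in a group depend on the prior count of the fit.

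Cdkn2c showed the smallest p-value of all genes between the models. It encodes p18INK4c, an inhibitor of Cdk4 and Cdk6, the kinases that cyclin D1 activates, and lies at chr4:109660876-109667189. Its levels were 2.25, 1.11, 1.34, 2.63, 3.37 and 2.18 CPM in MMSET-Ikk2ca and 22.1, 11.5, 17.5, 22.7, 19.1 and 20.8 CPM in Ccnd1-Ikk2ca. The controls lay in between, at 6.20, 7.92 and 12.9 CPM in Control(M) and 8.70, 9.05 and 10.3 in Control(D). The log2 fold change was -3.14 ± 0.27, an 8.81-fold difference (edgeR adjusted p = 3.35e-09), and -3.06 ± 0.40 after subtraction of the controls (edgeR adjusted p = 6.47e-05). Set against their own controls, the models moved in opposite directions, with a log2 fold change of -2.02 in MMSET-Ikk2ca (edgeR adjusted p = 1.09e-05) and 1.03 in Ccnd1-Ikk2ca (0.0177).

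Few other members of the D-type cyclin and retinoblastoma axis differed. Of the 23 genes in that list, 3 were lower in MMSET-Ikk2ca (Ccnd1, Cdkn2c and Cdk6) and none higher. Over all genes 1.57% were called lower, and the median of the list was -0.02. Cdk6, a kinase partner of cyclin D1, was at or near 0 in all MMSET-Ikk2ca libraries, but also at 0 in 2 Ccnd1-Ikk2ca libraries and at 0.0155, 1.66, 2.06 and 5.79 CPM in the others. Its call (log2 fold change -5.45 ± 1.39, edgeR adjusted p = 0.0279) was lost in 6 of 20 fits that left out a library, with adjusted p up to 0.0819. Ccnd2, the cyclin D2 gene, stood at 329, 562 and 683 CPM in MMSET-Ikk2ca and 358, 783 and 1144 in Ccnd1-Ikk2ca and did not pass the test (edgeR adjusted p = 0.766). None of 30 mitosis genes (median 0.03) and none of 31 DNA replication genes (median -0.15) passed the test.

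The genes that were higher in MMSET-Ikk2ca beyond the difference of the controls included a peptidase, a pore-forming protein and an innate signalling adaptor. Napsa (chr7:44572380-44586862), which encodes the aspartic peptidase napsin A, was read at 117, 161, 128, 165, 156 and 138 CPM in MMSET-Ikk2ca and 39.4, 22.8, 20.7, 25.3, 15.3 and 33.8 CPM in Ccnd1-Ikk2ca, with no overlap. This is a log2 fold change of 2.46 ± 0.24 (edgeR adjusted p = 2.73e-08) and 2.24 ± 0.37 after subtraction (0.00148). Against its own control Ccnd1-Ikk2ca had a log2 fold change of -1.52 (edgeR adjusted p = 0.00022), and MMSET-Ikk2ca had one of 0.72 that did not pass the test (0.0823).

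Mpeg1 (chr19:12460779-12465283), which encodes the perforin-like protein perforin-2, stood at 20.9, 76.8 and 97.5 CPM in MMSET-Ikk2ca against 2.45, 3.07 and 4.28 CPM in Ccnd1-Ikk2ca. Control(M) had 0.650, 5.02 and 15 CPM and Control(D) 2.94, 6.12 and 6.75, so every MMSET-Ikk2ca library lay above all libraries of the other 3 groups. The log2 fold change was 4.35 ± 0.59 (edgeR adjusted p = 3.87e-05). After subtraction it was 4.12 ± 0.85 (edgeR adjusted p = 0.0290), a call lost in 9 of 20 fits that left out a library, with adjusted p up to 0.0995. Mpeg1 is also expressed by macrophages. The 14 monocyte and macrophage markers summed to 589 to 948 CPM in MMSET-Ikk2ca and 437 to 828 in Ccnd1-Ikk2ca, with none passing the test. The median of the 14 log2 fold changes between the models was 1.52, with 10 of 14 above 0, against -0.02 between the controls and 1.36 after subtraction, and their part in the difference of Mpeg1 was not tested.

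Ticam1, which encodes the adaptor TRIF of Toll-like receptors 3 and 4, moved in opposite directions in the models relative to their controls. It stood at 19.7, 25 and 32.6 CPM in MMSET-Ikk2ca and 10.03, 12.4 and 14.9 in Ccnd1-Ikk2ca, with 14.4 to 18.3 in Control(M) and 18.4 to 23.3 in Control(D). The difference was 1.02 ± 0.16 on the log2 scale (edgeR adjusted p = 0.000223) and 1.40 ± 0.25 after subtraction (0.00719). Against its control the log2 fold change was 0.62 in MMSET-Ikk2ca (edgeR adjusted p = 0.0302) and -0.78 in Ccnd1-Ikk2ca (0.00386).

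On the lower side, Nrp2 (chr1:62703285-62818695), the co-receptor neuropilin-2 for semaphorins and VEGF, had 0, 0.0344 and 0.338 CPM in MMSET-Ikk2ca and 3.49, 4.27 and 13.2 in Ccnd1-Ikk2ca. Both controls expressed it, at 6.04 to 24.1 and 2.03 to 14.6 CPM. MMSET-Ikk2ca differed by -5.75 ± 0.71 on the log2 scale (edgeR adjusted p = 5.81e-06) and -6.61 ± 1.0 after subtraction (0.000657). Hmga1 (chr17:27556497-27563674), an architectural chromatin protein, was read at 12.4, 15.8 and 19.1 CPM in MMSET-Ikk2ca, below Ccnd1-Ikk2ca at 25, 35.5 and 45.7, Control(M) at 28.8 to 38.5 and Control(D) at 25 to 31.2. Its log2 fold change was -1.19 ± 0.16 (edgeR adjusted p = 3.25e-05) and -1.41 ± 0.26 after subtraction (0.00728). Sorcs2, a sortilin-type receptor, had 0.0870, 0.971 and 5.71 CPM in MMSET-Ikk2ca and 14.4, 19.95 and 21.8 in Ccnd1-Ikk2ca (log2 fold change -3.45 ± 0.55, edgeR adjusted p = 0.000333). After subtraction it was -4.01 ± 0.83 (edgeR adjusted p = 0.0290), lost in 7 of 20 fits that left out a library.

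**Figure D3:**
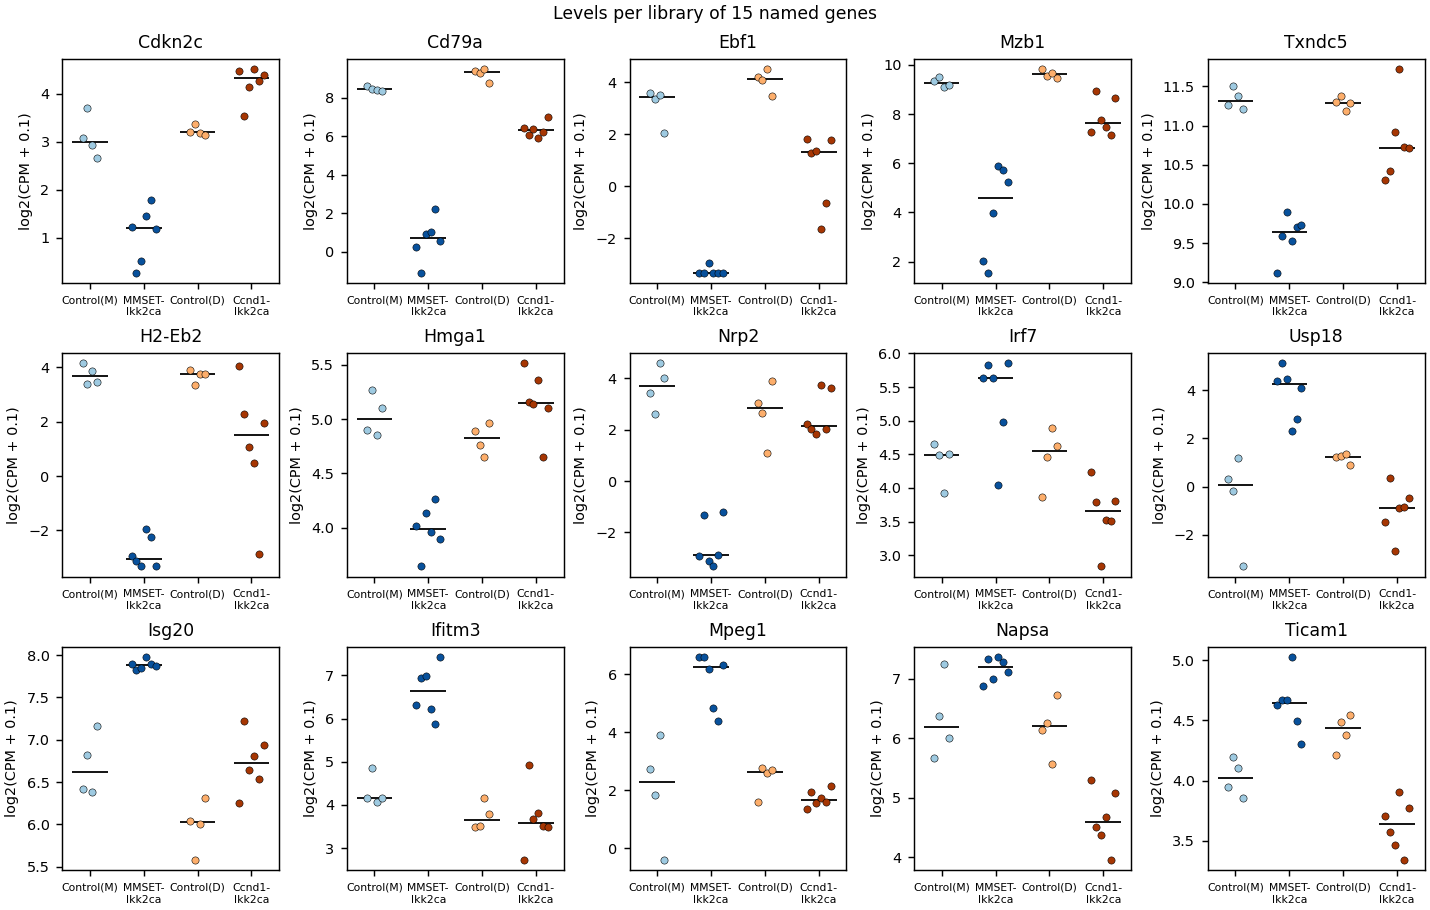
Levels of 15 genes in each library of MMSET-Ikk2ca, Ccnd1-Ikk2ca, Control(M) and Control(D) (points) with group medians (lines), as log2(CPM + 0.1). Cdkn2c lies lowest in MMSET-Ikk2ca and highest in Ccnd1-Ikk2ca, Napsa lowest in Ccnd1-Ikk2ca, and Cd79a falls in steps from the controls over Ccnd1-Ikk2ca to MMSET-Ikk2ca.

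Interferon-stimulated genes were the list with the most calls on the higher side, 12 of 33. Interferons bind surface receptors that activate a transcription factor complex that includes Stat2 and Irf9, and this complex binds a DNA element with the core GAAANNGAAA in the promoters of its targets. That core, searched on both strands with any overlap, occurred in 3.99% of 27025 promoters (250 bases before to 50 after the RefSeq start, GRCm38.p6), and in 3.91% of the 11163 tested genes with a promoter sequence. Of the 113 higher genes with a promoter sequence 14 held it (12.4%), and of the 175 lower genes 9 (5.14%). In the list of 33 interferon-stimulated genes, 16 of 26 did (61.5%), 2 of the 9 that were called and 14 of the 17 that were not. Windows of 60 bases around the match are shown for Stat2, Irgm1 and Phf11b, which passed the test, and for Ifit3 and Isg15 from the list, which did not. They print the letters of the match and its surroundings. Capitals mark the matches, which are written as TTTCNNTTTC where they lie on the strand opposite to the gene, and each window runs 5′ to 3′ on the gene's strand.
Stat2, chr10:128270251-128270310 (+): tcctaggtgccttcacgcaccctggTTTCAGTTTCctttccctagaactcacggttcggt
Irgm1, chr11:48871421-48871480 (-): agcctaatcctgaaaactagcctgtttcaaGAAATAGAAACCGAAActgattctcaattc
Phf11b, chr14:59341346-59341405 (-): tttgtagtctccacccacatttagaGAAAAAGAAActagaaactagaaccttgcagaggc
Ifit3, chr19:34583348-34583407 (+): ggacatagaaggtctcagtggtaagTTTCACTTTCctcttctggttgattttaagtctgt
Isg15, chr4:156200862-156200921 (-): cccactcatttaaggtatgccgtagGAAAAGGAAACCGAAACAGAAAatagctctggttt
Irgm1 and Isg15 held 2 and 3 overlapping matches. A match describes these letters in this window and not binding.

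Of the 33 interferon-stimulated genes, all passed the filter on low counts, 12 were higher in MMSET-Ikk2ca, none was lower and all 33 fitted log2 fold changes were above 0. Their median was 1.78, against -0.01 over all genes, and the share called was 12 of 33 where 0.923% of all genes were called higher. The median between the controls was 0.08 and the median after subtraction 1.32, with Irf7 and Usp18 passing that test. The summed level was 1628, 1785, 1624, 1782, 1111 and 1939.6 CPM in MMSET-Ikk2ca replicates 1 to 6 and 679, 895, 1041, 754, 963 and 1177 CPM in Ccnd1-Ikk2ca. Only MMSET-Ikk2ca replicate 5 fell within the range of the other model. Control(M) summed to 544 to 794 CPM and Control(D) to 446 to 632. Against their controls 18 of the 33 were higher in MMSET-Ikk2ca (median 2.06) and 9 in Ccnd1-Ikk2ca (median 0.16). In the first of these comparisons 7.54% of all genes were called, 3.13% higher and 4.42% lower, and in the second 9.53%, 5.59% higher and 3.94% lower. The number called between the models ranged from 6, in a fit of replicates 1 to 4, to 21 with limma voom, and was 11 without MMSET-Ikk2ca replicate 4.

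Among the regulators, Irf7 (chr7:141262706-141266481), the factor that amplifies type I interferon transcription, was read at 49.8, 56.4, 49.5, 16.5, 31.3 and 57.9 CPM in MMSET-Ikk2ca and 18.7, 13.7, 7.02, 11.3, 11.2 and 13.9 CPM in Ccnd1-Ikk2ca. MMSET-Ikk2ca replicate 4 lay inside the range of the other model, and the other 5 lay above it. The log2 fold change was 1.78 ± 0.26 (edgeR adjusted p = 9.13e-05) and 1.87 ± 0.41 after subtraction (0.0391, a call lost in 16 of 20 fits that left out a library, with adjusted p up to 0.105). Usp18 (chr6:121245906-121270917), a negative regulator of interferon receptor signalling, stood at 4.90, 19 and 35.1 CPM in MMSET-Ikk2ca and 0.0579, 0.442 and 1.17 in Ccnd1-Ikk2ca, with a log2 fold change of 5.15 ± 0.93 (edgeR adjusted p = 0.00122) and 6.23 ± 1.36 after subtraction (0.0391).

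Stat2 and Irf9 of the interferon response complex, singled out after their values were seen, were both higher in MMSET-Ikk2ca. Stat2 had 42.2, 42.7, 41.3, 17.4, 28.5 and 43.7 CPM against 13.7 to 20.9 (1.05 ± 0.21, edgeR adjusted p = 0.00411), and Irf9 had 67.9, 72.3, 60.7, 25, 29.8 and 55.8 CPM against 19.6 to 35.4 (1.08 ± 0.23, edgeR adjusted p = 0.00670). In both genes and in Irf7, replicates 4 and 5 were the lowest of the 6 MMSET-Ikk2ca libraries. Ifit2, an RNA-binding effector, and Iigp1, an interferon-inducible GTPase, had 0 reads in all Ccnd1-Ikk2ca libraries and 2453 and 2435 reads over the 6 MMSET-Ikk2ca libraries. Against a floor of 3 reads over the group they were at least 800.1-fold and at least 794-fold higher (edgeR adjusted p = 0.0145 and 0.0109). In MMSET-Ikk2ca against Control(M) neither passed the test (edgeR adjusted p = 0.290 and 0.390). Weaker calls were Irgm1 (log2 fold change 1.03), Ifi35 (0.71) and Ifi44 (4.23), with edgeR adjusted p-values of 0.0493, 0.0494 and 0.0465, lost in 16, 16 and 18 of 20 fits that left out a library. Xaf1, a pro-apoptotic protein induced by interferon, had 11.5, 30.6 and 40.0 CPM against 3.60, 7.41 and 12.1 (1.89 ± 0.39, edgeR adjusted p = 0.00486). Isg15, a ubiquitin-like modifier, had a log2 fold change of 1.73 and did not pass (edgeR adjusted p = 0.0734). After subtraction of the controls none of Stat2, Irf9, Ifit2, Iigp1, Irgm1, Ifi35, Ifi44 and Xaf1 passed (edgeR adjusted p = 0.117 to 0.962).

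Other genes with a large difference on the higher side included Ly6i, genes known to respond to interferon, Ctsh and Nucb2. Ly6i, a surface protein of the Ly6 family, stood at 155, 2614 and 5160.3 CPM in MMSET-Ikk2ca and 32.7, 146 and 279 in Ccnd1-Ikk2ca, against 8.69 to 16.3 in Control(M) and 1.98 to 8.07 in Control(D). It was therefore raised over the controls in both models, with log2 fold changes of 7.67 and 5.01 (edgeR adjusted p = 8.91e-06 and 0.000413), and by a further 4.03 ± 0.68 in MMSET-Ikk2ca over Ccnd1-Ikk2ca (0.000888). Ifitm3, a membrane protein that blocks viral entry, had 58.6, 102 and 173 CPM against 6.49, 12 and 30.3, a log2 fold change of 2.89 ± 0.41 (edgeR adjusted p = 5.95e-05). Ifi27l2a (2.40 ± 0.45), Phf11b (2.29 ± 0.41) and Slfn2 (2.04 ± 0.33) were higher with no overlap, at edgeR adjusted p-values of 0.00264, 0.00115 and 0.000333. None of Ly6i, Ifitm3, Ifi27l2a, Phf11b and Slfn2 passed the test after subtraction of the controls (edgeR adjusted p = 0.112 to 0.287). Cxcl10, a chemokine induced by interferon and NF-kB, had 11.9, 22.7 and 40.5 CPM against 0.310, 1.95 and 9.64, but its adjusted p of 0.0491 (edgeR) was lost in 19 of 20 fits that left out a library. Nucb2 had 56.3, 74.4 and 109 CPM against 12.7, 13.7 and 44.4 (2.05 ± 0.40, edgeR adjusted p = 0.00313). It was higher than the control in both models (4.27 and 2.18) and did not pass after subtraction (edgeR adjusted p = 0.184). Ctsh and Nucb2 were both higher with no overlap. Ctsh had 20.1, 28.9 and 42.9 CPM against 1.85, 4.40 and 13.3 (2.26 ± 0.50, edgeR adjusted p = 0.00972). In MMSET-Ikk2ca it did not pass against the control (-0.29, edgeR adjusted p = 0.826), and in Ccnd1-Ikk2ca it was lower than the control (-3.16, 0.000406). After subtraction Ctsh did not pass (edgeR adjusted p = 0.127). Phf11b in MMSET-Ikk2ca did not pass against the control either (0.88, edgeR adjusted p = 0.235).

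The MHC class I and immunoproteasome genes were also higher, and here the controls differed too. Of 19 genes, 6 were higher in MMSET-Ikk2ca and none lower, where 0.923% of all genes were called higher, and 18 values were above 0. The median of 0.27, however, was the same as between the controls (0.27), 0.22 was left after subtraction, and 4 of the 6 were marked as already different. H2-D1, a classical class I heavy chain, had 2395, 3709 and 4534 CPM in MMSET-Ikk2ca, 1379, 1809.7 and 2334 in Ccnd1-Ikk2ca, 1214 to 1567 in Control(M) and 762 to 1245 in Control(D). The models differed by 0.92 ± 0.19 on the log2 scale (edgeR adjusted p = 0.00559) and by 0.39 ± 0.31 after subtraction (0.734). H2-K1 (0.77 ± 0.17, edgeR adjusted p = 0.00895) and H2-Q6 (1.05 ± 0.23, 0.00643) had the same pattern. Tap1, the peptide transporter, was not marked and differed by 0.75 ± 0.17 (edgeR adjusted p = 0.0119). The controls differed by 0.31 in Tap1, and 0.44 ± 0.27 was left after subtraction (edgeR adjusted p = 0.597). In both models 11 of the 19 genes were higher than in the cohort's control, where 3.13% of all genes were called higher for MMSET-Ikk2ca and 5.59% for Ccnd1-Ikk2ca.

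Other rises were marked in the same way. Isg20, an interferon-induced exonuclease, had 226, 235 and 252 CPM in MMSET-Ikk2ca against 75.9, 106 and 149 (log2 fold change 1.12 ± 0.19, edgeR adjusted p = 0.000391), with a difference of 0.72 between the controls (unadjusted p = 0.00296). Lgals9, the lectin galectin-9, had 45.9, 80.0 and 95.8 CPM against 21.9, 24.8 and 32.1 (1.5 ± 0.26, edgeR adjusted p = 0.00078), with 19.3 to 26.2 CPM in Control(M) and 3.43 to 14.3 in Control(D). After subtraction 0.40 ± 0.29 and 0.18 ± 0.41 were left (edgeR adjusted p = 0.690 and 0.975). Cpq, a plasma glutamate carboxypeptidase, was marked as well (2.45 ± 0.46, edgeR adjusted p = 0.00277). Sprr1a, a small proline-rich protein of stressed and differentiating cells, varied widely within MMSET-Ikk2ca, at 2.88, 0.0139, 40.4, 77.3, 117 and 62.2 CPM, and was at 0 to 0.234 CPM in Ccnd1-Ikk2ca (9.63 ± 2.08, edgeR adjusted p = 0.00972). It too was marked, with a single Control(M) library at 7.52 CPM and the others at 0 to 0.0324.

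**Figure D4:**
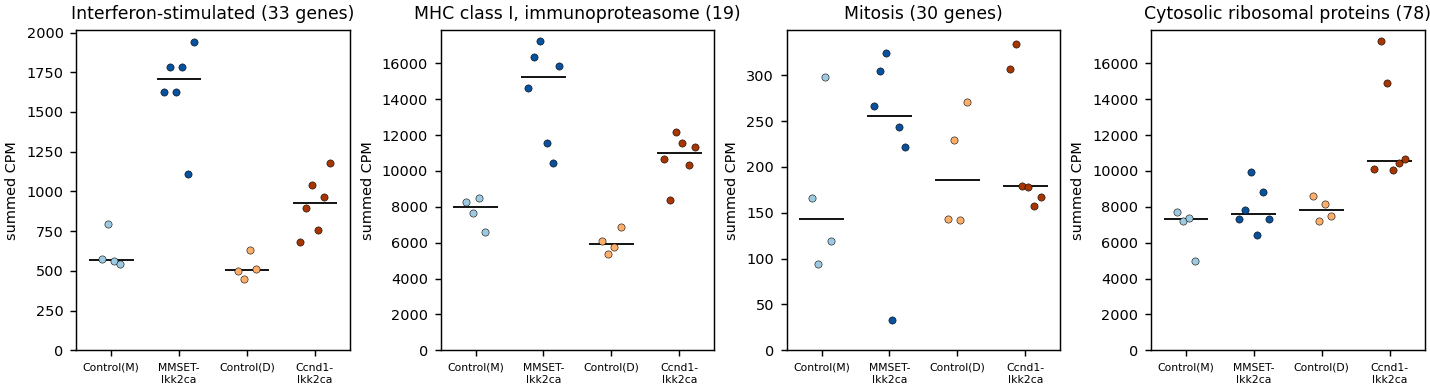
Summed CPM of 33 interferon-stimulated, 19 MHC class I, 30 mitosis and 78 cytosolic ribosomal protein genes in each library of the 4 groups (points) with group medians (lines). By median, interferon-stimulated genes are highest in MMSET-Ikk2ca and ribosomal protein genes in Ccnd1-Ikk2ca, and 1 MMSET-Ikk2ca library lies below all others for mitosis genes.

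Many B cell genes were lower in both models than in the controls, and some were lower again in MMSET-Ikk2ca. Against their controls 14 of 28 B cell identity genes were lower in each model, where 4.42% of all genes were called lower for MMSET-Ikk2ca and 3.94% for Ccnd1-Ikk2ca. Between the models 7 of the 28 were lower in MMSET-Ikk2ca and none higher, where 1.57% of all genes were called lower, while the median of the list was 0.29 (0.25 between the controls). The number lower fell to 3 without Ccnd1-Ikk2ca replicate 1 and was 4 without MMSET-Ikk2ca replicate 4. Ccnd1-Ikk2ca replicate 1 was also the library with the neutrophil sum of 223 CPM, and a link between that sum and these calls was not tested.

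Cd79a (chr7:24897381-24902197), the signalling chain of the B cell receptor, showed the steps plainly. It was read at 1.12, 0.375, 1.82, 1.94, 4.57 and 1.37 CPM in MMSET-Ikk2ca, 87.0, 67.3, 83.1, 60.03, 74.3 and 128 in Ccnd1-Ikk2ca, 324 to 389 in Control(M) and 430 to 707 in Control(D). The models differed by -5.48 ± 0.49 on the log2 scale (edgeR adjusted p = 2.57e-08) and by -4.69 ± 0.68 after subtraction (0.00056). Ebf1 (chr11:44617317-45008091), a transcription factor that specifies the B lineage, had 2 reads over the 6 MMSET-Ikk2ca libraries and 891 over the 6 Ccnd1-Ikk2ca libraries, a CPM ratio of 455 (95% counting interval 126 to 3765), with 4.07 to 11.8 CPM in Control(M) and 11.1 to 22.6 in Control(D). It passed the test between the models and after subtraction (edgeR adjusted p = 1.26e-05 and 0.0107). Ebf1 is also a marker of B cell precursors, whose 8 markers summed to 0 to 0.561 CPM in MMSET-Ikk2ca and 0.224 to 4.01 in Ccnd1-Ikk2ca, and their part in the difference was not tested. Ets1, a factor that restrains plasma cell differentiation, had 0.993, 1.64 and 2.60 CPM against 3.73, 4.87 and 9.97 (log2 fold change -1.72 ± 0.33, edgeR adjusted p = 0.00264).

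Some surface proteins were near 0 in MMSET-Ikk2ca. Btla, an inhibitory receptor, had 2 against 910 reads (ratio 465, 128 to 3845; edgeR adjusted p = 0.0113). Cd200, a ligand of an inhibitory receptor on myeloid cells, and Anxa2, a membrane-binding annexin, each had 1 against 267 reads (ratio 273, 48.6 to 10817; edgeR adjusted p = 0.0185 and 0.0168), and both were at 0 in 2 of the Ccnd1-Ikk2ca libraries. Each lost its call in 2 of 20 fits that left out a library, Cd200 with 0.0623 without MMSET-Ikk2ca replicate 2 and Anxa2 with 0.0759 without Ccnd1-Ikk2ca replicate 1.

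Most MHC class II genes were lower in both models than in the controls, and Cd74 was higher. Of 11 genes 9 were lower and 1 higher in each model than in its control, where 4.42% and 3.94% of all genes were called lower. Between the models 2 were lower in MMSET-Ikk2ca, H2-Ab1 and H2-Eb2, where 1.57% of all genes were called lower. H2-Ab1, the beta chain of I-A, had 0.161, 2.19 and 6.25 CPM in MMSET-Ikk2ca, 25.5, 41.0 and 69.2 in Ccnd1-Ikk2ca, 145 to 752 in Control(M) and 188 to 572 in Control(D), a log2 fold change between the models of -4.08 ± 0.64 (edgeR adjusted p = 0.000353). H2-Eb2 (chr17:34325665-34341412) had 0, 0.0227 and 0.161 CPM in MMSET-Ikk2ca and 0.0364, 2.85 and 16.5 in Ccnd1-Ikk2ca, so the groups overlapped. Its log2 fold change was -6.45 ± 0.90 (edgeR adjusted p = 4.96e-05) and -6.50 ± 1.22 after subtraction (0.0107; 0.0551 without Control(D) replicate 2). Cd74, the invariant chain, was the member higher than the control in each model (log2 fold changes of 1.43 and 1.36, edgeR adjusted p = 0.00102 and 0.00157). It made up most of the list's summed level, whose median was 10704 CPM in MMSET-Ikk2ca and 5077 in Control(M), and 7512 in Ccnd1-Ikk2ca and 3544 in Control(D). Between the models Cd74 did not pass the test, at 7380.5, 10659 and 13545 CPM in MMSET-Ikk2ca and 4493, 7439 and 10093 in Ccnd1-Ikk2ca (0.50, edgeR adjusted p = 0.327).

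Some plasma cell identity genes were lower in MMSET-Ikk2ca. Of 27 plasma cell identity genes 5 were lower and none higher, where 1.57% of all genes were called lower. The median of the list was -0.01, and the number lower was 1 to 5 over the alternatives. Mzb1, an ER co-chaperone of antibody assembly, was read at 3.98, 2.82, 15.5, 59.8, 52.9 and 37.7 CPM in MMSET-Ikk2ca and 154, 488, 219, 176, 143 and 402 in Ccnd1-Ikk2ca, below 546 to 719 in Control(M) and 699 to 906 in Control(D). The models differed by -3.20 ± 0.51 on the log2 scale (edgeR adjusted p = 0.000391) and by -2.85 ± 0.76 after subtraction (0.126). Txndc5, an ER thioredoxin, had 557, 801 and 950.1 CPM against 1269.8, 1680.3 and 3371 (-1.27 ± 0.19, edgeR adjusted p = 0.000109).

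Jchain, which joins IgM and IgA into polymers, had 1243, 3173 and 4072 CPM in MMSET-Ikk2ca and 4092, 8532 and 16557 in Ccnd1-Ikk2ca, far below both controls at 27339 to 37005 and 50213 to 95605. The difference of -1.68 ± 0.43 (edgeR adjusted p = 0.0298) was marked, since the controls differed by -1.21 (unadjusted p = 0.0267), and -0.47 ± 0.66 was left after subtraction (edgeR adjusted p = 0.923). The call was lost in 5 of 20 fits that left out a library (0.0883 without Ccnd1-Ikk2ca replicate 2). Tnfrsf17, which encodes the survival receptor BCMA, had 6.17, 14.5 and 22.1 CPM against 13.4, 36.8 and 44.1, a log2 fold change of -1.17 ± 0.31 (edgeR adjusted p = 0.0327, lost in 8 of 20 fits that left out a library). Ccr10, a homing receptor, was lower and marked (-2.84 ± 0.71, edgeR adjusted p = 0.0265; lost in 4 of 20 fits, 0.0649 without MMSET-Ikk2ca replicate 6). Irf4, Prdm1 and Xbp1, the factors that drive plasma cell identity, had log2 fold changes of 0.02, -0.49 and -0.38 (edgeR adjusted p = 0.999, 0.588 and 0.288). None of 34 ER folding and secretion genes passed the test (median 0.17). In bulk samples fewer cells of a type and less RNA per cell cannot be told apart.

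Of the NF-kB genes few passed the test, where 0.923% of all genes were called higher and 1.57% lower. None of 23 regulators and subunits differed by it between the models (median 0.13), while 9 were higher in MMSET-Ikk2ca and 6 in Ccnd1-Ikk2ca than in the cohort's control (3.13% and 5.59% of all genes were called higher there). Of 25 measured NF-kB target genes, 1 was higher (Cxcl10) and 1 lower, Cd69, an early activation marker (log2 fold change -1.74 ± 0.46, edgeR adjusted p = 0.0333, lost in 6 of 20 fits that left out a library). None of 26 TNF superfamily genes and none of 19 apoptosis regulators passed. Among 20 enzymes of H3K36 and H3K27 methylation Nsd2 alone did. In the human MMSET subgroup list, 5 of 8 genes were measured, of which Nsd2 was higher and Ccr2, a chemokine receptor, was lower (2 against 317 reads, ratio 162, 44.5 to 1343; edgeR adjusted p = 0.0150). In the human CCND1 subgroup list, 2 of 8 were lower in MMSET-Ikk2ca, Ccnd1 itself and Cd79a.

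Many cytosolic ribosomal protein genes were lower in MMSET-Ikk2ca than in Ccnd1-Ikk2ca. This group of 78 genes was formed from its gene symbols after the calls were seen, so it is a description. Of the 78, 55 were lower and none higher, where 1.57% of all genes were called lower. All values were below 0, from -1.12 to -0.24 with a median of -0.64, and these 55 were 20.4% of the 269 lower genes. The summed level was 6425, 7585 and 9943 CPM in MMSET-Ikk2ca and 10075, 10546 and 17225 in Ccnd1-Ikk2ca, without overlap, with 4958 to 7722 in Control(M) and 7215 to 8580 in Control(D). Against the cohorts' controls 56 of the 78 were higher in Ccnd1-Ikk2ca (median 0.68), where 5.59% of all genes were called higher. In MMSET-Ikk2ca 4 were higher and 1 lower (median 0.28), where the shares of all genes were 3.13% and 4.42%. The controls differed in the same direction (median -0.22, none called), and after subtraction the median was -0.44 and none of the 78 passed the test. The number lower ranged from 29, without Ccnd1-Ikk2ca replicate 2, to 59 over the fits that left out a library, was 32 without Ccnd1-Ikk2ca replicate 3, 33 without MMSET-Ikk2ca replicate 1 or 6, and 35 without replicate 4, and 24 in the fit of 12 libraries. Processed pseudogenes resemble these genes closely, and how reads were divided among the copies is uncertain.

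Oxidative phosphorylation genes had a smaller shift of the same sign. Of 33 genes 31 had values below 0 (median -0.20), but 2 were called lower, Atp5a1 (-0.48 ± 0.11, edgeR adjusted p = 0.0104) and Atp5b (-0.37 ± 0.10, 0.0353), both subunits of ATP synthase, and Cycs, which encodes cytochrome c, was called higher (0.54 ± 0.15, 0.0489). Between the models 1.57% of all genes were called lower and 0.923% higher. Atp5a1 was marked by the controls, and Atp5b and Cycs lost their calls in 7 and 18 of 20 fits that left out a library. The median of the list was 0.13 between the controls and -0.34 after subtraction, where none of the 33 passed the test. Against the controls 23 of the 33 were higher in Ccnd1-Ikk2ca and 3 in MMSET-Ikk2ca, beside 5.59% and 3.13% of all genes.

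Some migration and immune contact genes passed the test, where 2.49% of all genes were called, 0.923% higher and 1.57% lower. Of 29 adhesion and migration genes, Pecam1, the adhesion receptor CD31, was higher (26.6, 34.4 and 82.3 against 10.5, 15.7 and 28.7 CPM, log2 fold change 1.26 ± 0.31, edgeR adjusted p = 0.0180, lost in 2 of 20 fits that left out a library, with 0.0789 without MMSET-Ikk2ca replicate 5) and 2 were lower, among them Anxa2. Of 21 measured chemokine and receptor genes 1 was higher (Cxcl10) and 3 were lower, the receptors Ccr2, Ccr9 and Ccr10. Ccr9, a gut homing receptor that plasmacytoid dendritic cells also express, had 0, 0 and 0.331 CPM against 0.825, 2.78 and 6.84 (edgeR adjusted p = 0.00411). The 9 dendritic cell markers summed to 68.2 to 146 CPM in MMSET-Ikk2ca and 58.4 to 85.6 in Ccnd1-Ikk2ca, and their part was not tested. Of 26 measured immune interaction genes, Lgals9 and Cd47, the inhibitor of phagocytosis (0.56 ± 0.15, edgeR adjusted p = 0.0418, lost in 10 of 20 fits), were higher, and Btla, Cd200 and Ctla4 were lower, the last of these, an inhibitory receptor, with a call lost in 6 of 20 fits. Of 19 measured genes whose products are targets of myeloma therapy, 2 were lower, among them Tnfrsf17, and none was higher.

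Part of the calls were genes all but absent from a model. With at most 3 reads over the 6 libraries taken as near 0, a limit set after the values were seen, 41 of the 158 higher genes were near 0 in Ccnd1-Ikk2ca and 39 of the 269 lower genes near 0 in MMSET-Ikk2ca. Genes near 0 were counted among the calls only, so no share over all genes tested stands beside these counts. Of the 41, 20 were also near 0 in both control groups, so among the groups compared here their reads lay almost only in MMSET-Ikk2ca. Sfrp1, a secreted inhibitor of Wnt signalling, was the foremost, with 4773 reads in MMSET-Ikk2ca (4.38, 11.4 and 15.4 CPM), 0 in Ccnd1-Ikk2ca, 3 in Control(M) and 0 in Control(D). It was at least 1557-fold higher than in Ccnd1-Ikk2ca (edgeR adjusted p = 8.42e-07). Sfrp1 was marked as already different between the cohorts, with a difference of 2.88 between the controls (edgeR unadjusted p = 0.0399). Sgce, the membrane protein epsilon-sarcoglycan, had 2387 reads in MMSET-Ikk2ca and 1 in Ccnd1-Ikk2ca (ratio 2336, 419 to 92300; edgeR adjusted p = 0.000283). Ptprm, a receptor phosphatase, and Mpped2 were at least 354-fold and 269-fold higher than in Ccnd1-Ikk2ca (edgeR adjusted p = 0.0279, lost in 3 of 20 fits that left out a library, and 0.00818). After subtraction Sfrp1, Ptprm and Mpped2 had an edgeR adjusted p of 0.99997. With 0 reads in both Ccnd1-Ikk2ca and Control(D), that test could not decide for them.

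Of the 39 genes near 0 in MMSET-Ikk2ca, 1 was near 0 in both controls, Wfikkn2, a protease inhibitor that binds myostatin, with 679 reads in Ccnd1-Ikk2ca and at least 231-fold lower in MMSET-Ikk2ca. The rest were read in at least 1 control group. Fmnl1 (chr11:103171107-103198901), a formin of haematopoietic cells, had 1 read in MMSET-Ikk2ca and 1654 in Ccnd1-Ikk2ca (ratio 1690, 303 to 66799), with 11.6 to 21.7 CPM in Control(M) and 23.5 to 46.5 in Control(D), and passed the test between the models and after subtraction (edgeR adjusted p = 6.94e-06 and 0.00669). Fgf11, an intracellular member of the fibroblast growth factor family, had 1 against 997 reads (ratio 1019, 182 to 40281; edgeR adjusted p = 3.87e-07) and was read in all 6 Ccnd1-Ikk2ca libraries at 1.64 to 2.85 CPM. Nlrp10, an NLR family protein, had 3 against 1867 reads (ratio 636, 217 to 3087). Intervals and floors cover counting error only, since copies made in amplification are not separate molecules.

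The immunoglobulin repertoire varied widely within both models. The share of reads from immunoglobulin genes was 58.4% ± 8.01 (SD, n = 6) in MMSET-Ikk2ca and 61.5% ± 2.57 in Ccnd1-Ikk2ca (exact two-sided permutation p = 0.452, where 6 against 6 can reach 0.00216). Among heavy chain constant reads, Ighm (IgM) took 54.3% ± 32.3 and 56.9% ± 22.5. Igha (IgA) took 6.6% ± 5.83 in MMSET-Ikk2ca and 23.2% ± 20.8 in Ccnd1-Ikk2ca (exact permutation p = 0.0736, 0.294 adjusted over 12 measures), and Ighg2c took 9.57% ± 7.21 and 2.71% ± 2.66 (0.0476, adjusted 0.286). None of the 12 measures passed the adjustment. Between the controls Ighm took 69.9% ± 8.19 (n = 4) in Control(M) and 22.6% ± 16.8 in Control(D), and Igha 15.2% ± 7.76 and 56.6% ± 19.6, each at the smallest p that 4 against 4 allows (exact permutation p = 0.0286, adjusted 0.0857).

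In both models a single heavy chain variable gene led each library. It held 44.8% ± 18.6 of Ighv reads in MMSET-Ikk2ca (23.5% to 68.5%) and 43.6% ± 17.4 in Ccnd1-Ikk2ca (25.5% to 74.6%; exact permutation p = 0.905), against 10.9% to 30.8% in Control(M) and 5.97% to 11.5% in Control(D). The leading gene was a different one in each of the 6 libraries of either model. To reach 90% of Ighv reads took 4, 7.5 and 15 genes (lowest, median and highest) in MMSET-Ikk2ca, 9, 12.5 and 23 in Ccnd1-Ikk2ca, and 29 to 42 and 46 to 48 in the controls. The lambda light chain share was 83.6% and 75.6% in MMSET-Ikk2ca replicates 1 and 2 and at its lowest 2.71%, and its mean of 35.3% ± 35.8 stood against 16% ± 14.7 in Ccnd1-Ikk2ca, a difference within the spread (exact permutation p = 0.262). Among single immunoglobulin genes, 28 were among the 427 calls, 2 higher and 26 lower in MMSET-Ikk2ca. Over all genes tested 0.923% were called higher and 1.57% lower. The immunoglobulin genes that were tested were not counted, so the 28 are given without a share of their own. Ighe, the IgE constant gene, was one of the 26, at 0 to 1.53 CPM in MMSET-Ikk2ca and 0.352, 45.7 and 599 in Ccnd1-Ikk2ca (edgeR adjusted p = 0.0343, lost in 7 of 20 fits that left out a library).

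**Figure D5:**
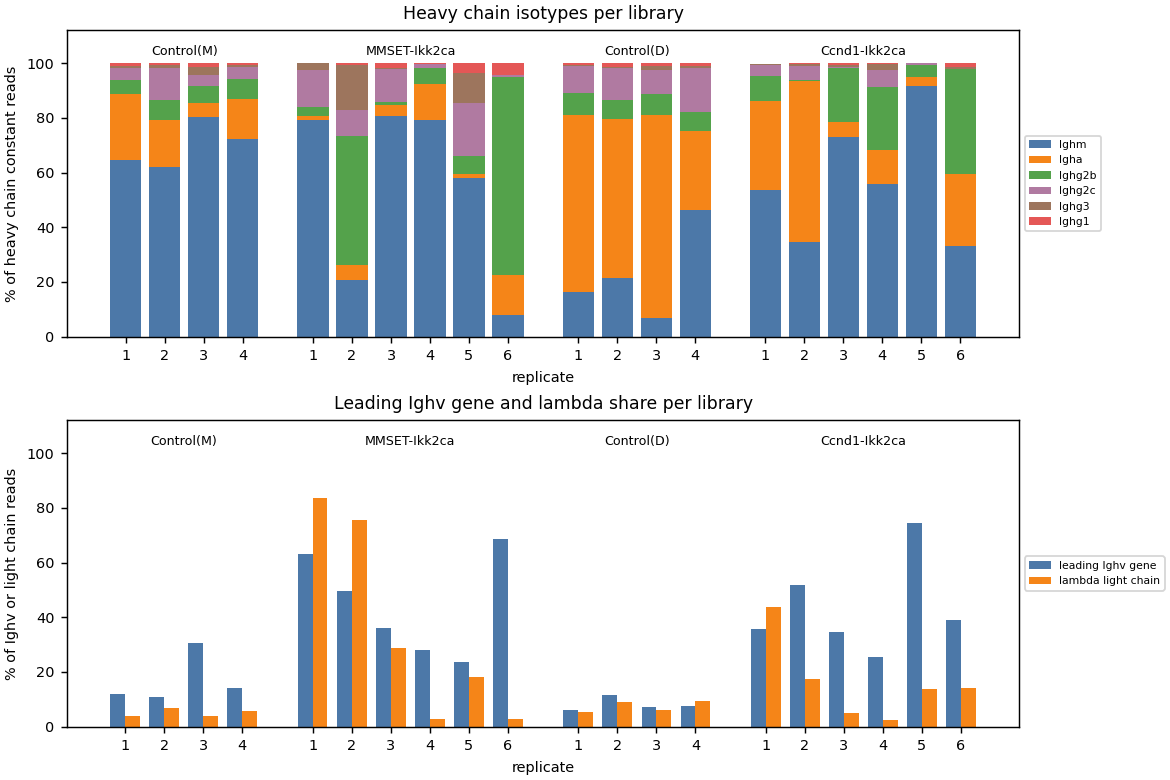
Shares of heavy chain constant reads by isotype (stacked bars, percent) and, per library, the share of Ighv reads from the leading Ighv gene and the lambda share of light chain constant reads (percent), for the 20 libraries of the 4 groups. Leading-gene shares reach 68.5% in MMSET-Ikk2ca and 74.6% in Ccnd1-Ikk2ca, and no more than 30.8% in the controls.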

How the data were processed

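Sorted plasma cells were profiled by low-input RNA sequencing, with oligo-dT priming, template switching and Nextera XT libraries, per the labels' protocols. The authors deposited, per library, estimated counts and TPM of each transcript, per the file headers. Salmon 1.3.0, bcl2fastq 2.20.0.422, DESeq2 1.32.0 and GRCm38 are named in the submitters' processing notes. The deposited TPM values served as an alternative for the immunoglobulin shares. Estimated counts were summed per gene with GENCODE vM21 (139960 transcripts matched, 865 did not, 0.0740% to 0.134% of reads) and rounded. A single edgeR 4.0.16 quasi-likelihood fit (TMM, filterByExpr, robust) of 36 libraries in 8 groups gave every contrast, with Benjamini-Hochberg adjustment over 17116 genes and calls at an adjusted p under 0.05. SE is the log2 fold change over the root of F. Strand was not used, so overlapping antisense genes cannot be told apart, and amplified copies could not be removed.

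Genes named by rule were those targeted, the 12 with the largest rise and the 12 with the largest fall at an average log2 CPM of at least 3, the 8 genes a direction with the smallest p after subtraction, and up to 3 members of each list with at least 3 calls, leaving out unnamed gene models, variable segments, Y-linked genes and Xist. A few rule-named genes are left unreported. Every other gene given with values was chosen after its values were seen. The comparison, its groups and the 38 lists were chosen with earlier results of these data known. Alternatives were DESeq2 1.42.0, limma 3.58.1 (voom), other size factors, filters, library sets and left-out libraries. The fit was tested on simulated data. Replicate numbers did not pair the libraries. Figures used matplotlib 3.10.9, and R was 4.3.3.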

Additional observations from a re-analysis of the deposited data

Results flagged for a closer look

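Of 360 groups of 4 or 6 libraries examined for a single outlying library, 35 had 1, where chance gives about 1 in 20. Several of the 35 were at 0 in every other library, so that very few reads made the outlier. The count therefore cannot be weighed against that rate. In MMSET-Ikk2ca the outlying libraries were mostly in genes at or near 0 in the other 5, at 0 to 0.0292 CPM. These were Fmnl1 in replicate 3 (0.0148 CPM), Btla in replicate 1 (0.0315), Fads2 in replicate 6 (0.218), Slc38a1 in replicate 1 (0.504), Cdk6 in replicate 5 (0.186), Ebf1 in replicate 3 (0.0295), Anxa2 in replicate 6 (0.00993), and, in replicate 2, Cd200 (0.0139), Fgf11 (0.0139) and Nlrp10 (0.0417). Iigp1 was at 0.696 CPM in MMSET-Ikk2ca replicate 5 and at 3.91 to 9.51 in the others, and Mpped2 at 0.0157 in replicate 1 and at 1.08 to 3.47 in the others.

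In Ccnd1-Ikk2ca, Ly6i was at 32.7 CPM in replicate 2 and 135 to 279 in the others, Nucb2 at 44.4 in replicate 5 and 12.7 to 17.3 in the others, Fmnl1 at 0.170 in replicate 5 and 2.40 to 9.09 in the others, Nlrp10 at 0.659 in replicate 6 and 3.98 to 6.66 in the others, and Sgce at 0.0145 in replicate 3 and 0 in the others. Among the immunoglobulin shares, Ighg3 was at 2.12% in replicate 4 (0.0351% to 0.794% in the others), Ighd at 0.0234% in replicate 5, and lambda at 43.6% in replicate 1 (2.63% to 17.3% in the others).

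In Control(M), replicate 2 held 29.1 CPM of Ifitm3 (16.8 to 17.7 in the others), 1.48 of Nucb2 (4.57 to 5.53), 1.5 of Ifit2 (0 in the others) and an Ighg2c share of 11.9% (3.69% to 4.62%). Replicate 4 held 7.52 CPM of Sprr1a (0 to 0.0324), 4.07 of Ebf1 (10.2 to 11.8) and 144 of Ccnd2 (400.2 to 437), and replicate 3 an Ighg3 share of 2.96% (0.551% to 0.809%) and a leading Ighv share of 30.8% (10.9% to 14%). In Control(D), Mpeg1 was at 2.94 CPM in replicate 1 (5.87 to 6.75 in the others), Sgce at 0.0463 and Wfikkn2 at 0.0154 in replicate 1, Ifit2 at 0.0845 in replicate 2, and in replicate 4 Iigp1 was at 0.438 (0 in the others) and Pik3r5 at 9.80 (55.9 to 69.9).

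The models' effects over their own controls differed, by the edgeR test of that difference, in 15 of the genes named by rule and reported, and in Sgce, Fgf11 and Nlrp10, which were chosen after their values were seen. The control-subtracted log2 difference of MMSET-Ikk2ca over Ccnd1-Ikk2ca was 7.78 for Nsd2, 6.23 for Usp18, 4.12 for Mpeg1, 2.24 for Napsa, 1.87 for Irf7 and 1.40 for Ticam1. It was -9.86 for Ccnd1, -6.61 for Nrp2, -6.50 for H2-Eb2, -4.69 for Cd79a, -4.01 for Sorcs2, -3.06 for Cdkn2c and -1.41 for Hmga1. For Fmnl1 and Ebf1, near 0 reads in MMSET-Ikk2ca, the fitted values of -8.87 and -7.45 depend on the prior count, and so do those of -7.77 for Fgf11, -10.1 for Nlrp10 and 13.1 for Sgce (edgeR adjusted p = 0.00148, 0.0330 and 0.0157). Without Control(D) replicate 1 Sgce lost its call (edgeR adjusted p = 0.99997), and the call of Nlrp10 was lost in 8 of 20 fits that left out a library.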

How the results depend on the processing

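The 427 genes that differed between the models became 902 with DESeq2, 884 with limma voom, 281 without a filter on low counts, 284 in a fit of the 12 libraries, 218 with the models limited to replicates 1 to 4 and 277 with that limit and the replicate block. Leaving out 1 library gave 274 to 410, with 280 without Ccnd1-Ikk2ca replicate 3 and 274 without MMSET-Ikk2ca replicate 2 or 6. Of the 427, DESeq2 called 416, limma voom 344 and the fit of 12 libraries 201. The 30 genes that differed after subtraction of the controls became 522 with DESeq2, 139 with limma voom and 60 in a fit of 20 libraries, and 14 to 41 with 1 library left out (14 without Control(D) replicate 2, 16 without Control(D) replicate 3, 17 without Control(M) replicate 2, 18 without Ccnd1-Ikk2ca replicate 3). The 7 genes between the controls became 421 with DESeq2, 43 in the fit of 20 libraries and 4 without the filter or with Xist above 10 CPM as a covariate, and 0 to 10 with 1 library left out (0 without Control(D) replicate 2). Fits that leave out a library keep at least 3 libraries a group. The cause of these changes was not tested.

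Same-numbered libraries did not deviate together (r from -0.0221 to 0.0503, each library correlating best with its own number for replicate 3 only), so the numbers were not taken as pairs. With the replicate block 386 genes differed between the models, 340 of them among the 427, 35 after subtraction and 7 between the controls. Of 70 called genes given with values, named by rule or chosen later, the block lost 5, limma voom 14, the fit without a filter 15, the fit of 20 libraries 7 and DESeq2 none. Replicates 1 to 4 lost 28, that limit with the block 19, and the fit of 12 libraries 15 of 64.

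The log2 fold change of Ikbkb, 0.03 with an SE of 0.20, ran from -0.0286 (without Ccnd1-Ikk2ca replicate 5) to 0.0838 with 1 library left out, and was -0.00602 without MMSET-Ikk2ca replicate 3. That of Irf4, 0.02, ran from -0.129 (without MMSET-Ikk2ca replicate 3) to 0.0954. With 1 library left out, differences between the models in percentage points ran from -3.48 to 7.46 for the leading Ighv gene, -1.78 to 11.5 for the leading Igkv gene, -7.92 to 6.61 for Ighm, -3.07 to 11.3 for Ighg2b and -0.00225 to 0.00260 for Ighd. With replicates 1 to 4 they were 0.863 for the immunoglobulin share, 10.6 for Ighm and 0.00368 for Ighd, and reversed in sign. Depth limits genes near 0, where the floor of 3 reads sets the fold.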
